A study of Mus musculus with 22 samples.

Results

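The genes described here encode the proteins of glycolysis and glycogen metabolism, from glucose uptake to lactate export and from glycogen synthesis to glycogen breakdown. They were chosen by name, as 42 gene symbols, and 37 of them were read by at least 1 probe of the array, out of 18524 genes in all. Hk2, Gpi1, Pfkfb1, Pfkfb3 and Eno1 carried no probe with that symbol and have no value here. A gene with several probes was read from the one whose mean intensity was highest. The measured genes were put into classes. Of them 13 are isoforms typical of skeletal muscle, and 13 are isoforms that are ubiquitous, typical of other tissues or known targets of HIF. The other 11 had no paired isoform in the list. They are called genes with a single form, though Pgm1 and Pgm2 are both among them. The name refers to this list only, and splice forms of a gene were not told apart.

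Gene expression was measured on Illumina arrays in the ischemic gastrocnemius, a calf muscle of mainly fast fibres, of 22 non-diabetic C57BL/6N male mice aged 8 to 12 weeks. In all of them the femoral artery had been removed, and on day 5 of ischemia each mouse received an intraperitoneal injection of an LNA oligonucleotide. In 11 mice it was directed against miR-210 (ANTI-210) and in 11 mice it had a scrambled sequence (SCR), and the muscles were taken on day 7. Every mouse was thus ischemic and injected, and neither uninjured muscle nor histology of these mice was analysed here. Each array held 1 mouse, and all values are log2 intensities.

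The RNA blocked in the ANTI-210 mice is a microRNA induced by hypoxia. Its mature sequence from RefSeq is shown with the seed, bases 2 to 8, in capitals; it lies at chr7:141221407-141221428 on the minus strand of GRCm38.p6.
mmu-miR-210-3p: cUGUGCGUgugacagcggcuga

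Glycolysis splits glucose into pyruvate and yields ATP without oxygen, and lactate dehydrogenase then turns pyruvate into lactate so that the pathway can go on. Fast muscle fibres store glucose as glycogen and run largely on this route, with isoforms of their own at many steps, such as muscle phosphofructokinase, muscle phosphoglycerate mutase and muscle glycogen phosphorylase. Most other cells, among them macrophages and young regenerating fibres, use the ubiquitous isoforms, and HIF, the transcription factor stabilised by low oxygen, raises many genes of the pathway.

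The level of muscle fibre RNA differed between mice. That level was read from a fast fibre score, built on 27 measured marker genes. Without histology, the score is not a count of fibres lost. The list holds myosins, troponins, calcium handling proteins and sarcomere genes that slow fibres share, and 0 of the glycolysis and glycogen genes. The score is the mean over these genes of the log2 intensity after subtracting the average of that gene. Of these markers 2 had a mean under 6, close to the lower end of the scale, and 17 had a mean over 14, close to its upper end of 15.4. The score was 0.15 at the median of the SCR mice (range -0.63 to 0.21) and 0.04 at the median of the ANTI-210 mice (range -0.53 to 0.16). SCR replicate 6 (-0.63), ANTI-210 replicate 11 (-0.53), SCR replicate 7 (-0.37) and ANTI-210 replicate 3 (-0.23) stood apart, and the other 18 mice lay between -0.09 and 0.21. Both groups thus held 2 mice with a clear loss of the score.

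The score comes from the same arrays as the genes, so a slope on it describes which genes moved together from mouse to mouse, and not the effect of a treatment. A slope is given as the change in log2 intensity per 1 log2 unit of loss of the score, with the treatment in the model. The score itself spanned 0.84 log2 units, and a fold over the observed range is the change fitted from one end of that span to the other. Of the 27 score markers 17 fell with loss of the score, 0 rose and 10 did neither (limma, adjusted p under 0.05). Of 8 slow fibre markers 5 fell and 1 rose, so the score is not particular to fast fibres. In a bulk muscle, fewer cells of a type and less RNA per cell cannot be told apart.

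With loss of the score 23 of the 37 genes fell, 8 rose and 6 passed in neither direction (limma, adjusted p under 0.05 over all probes). Among all 18524 genes 19.1% fell and 23.3% rose. Of the genes with a mean of 6 or more, 34.7% fell and 36.8% rose, against 22 and 8 of the 32 glycolysis and glycogen genes at that level. The median slope of the 37 genes was -0.92, beside -0.01 over all genes.

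The direction differed between the classes. These classes were set with earlier results of these data known, and the score is built from muscle fibre genes. The contrast between classes is thus a description and not a test. Of the 13 muscle isoforms 10 fell and 0 rose, with a median slope of -2.31. Of the 13 ubiquitous or HIF-driven isoforms 8 rose and 3 fell, with a median slope of 1.22. Of the 11 genes with a single form 10 fell and 0 rose, with a median of -1.26. The counts depend on where HIF targets are placed. Aldoa, Ldha, Slc16a3 and Gys1 are HIF targets among the muscle isoforms, and of these 4 genes 3 fell and 0 rose. Counted with the second class instead, they left 7 falling muscle isoforms and added only fallers beside the 8 risers of that class. Under cyclic loess normalization Aldoa and Eno3, which passed in neither direction in the deposited values, rose, and Gapdh and Ldha no longer passed.

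**Figure D1:**
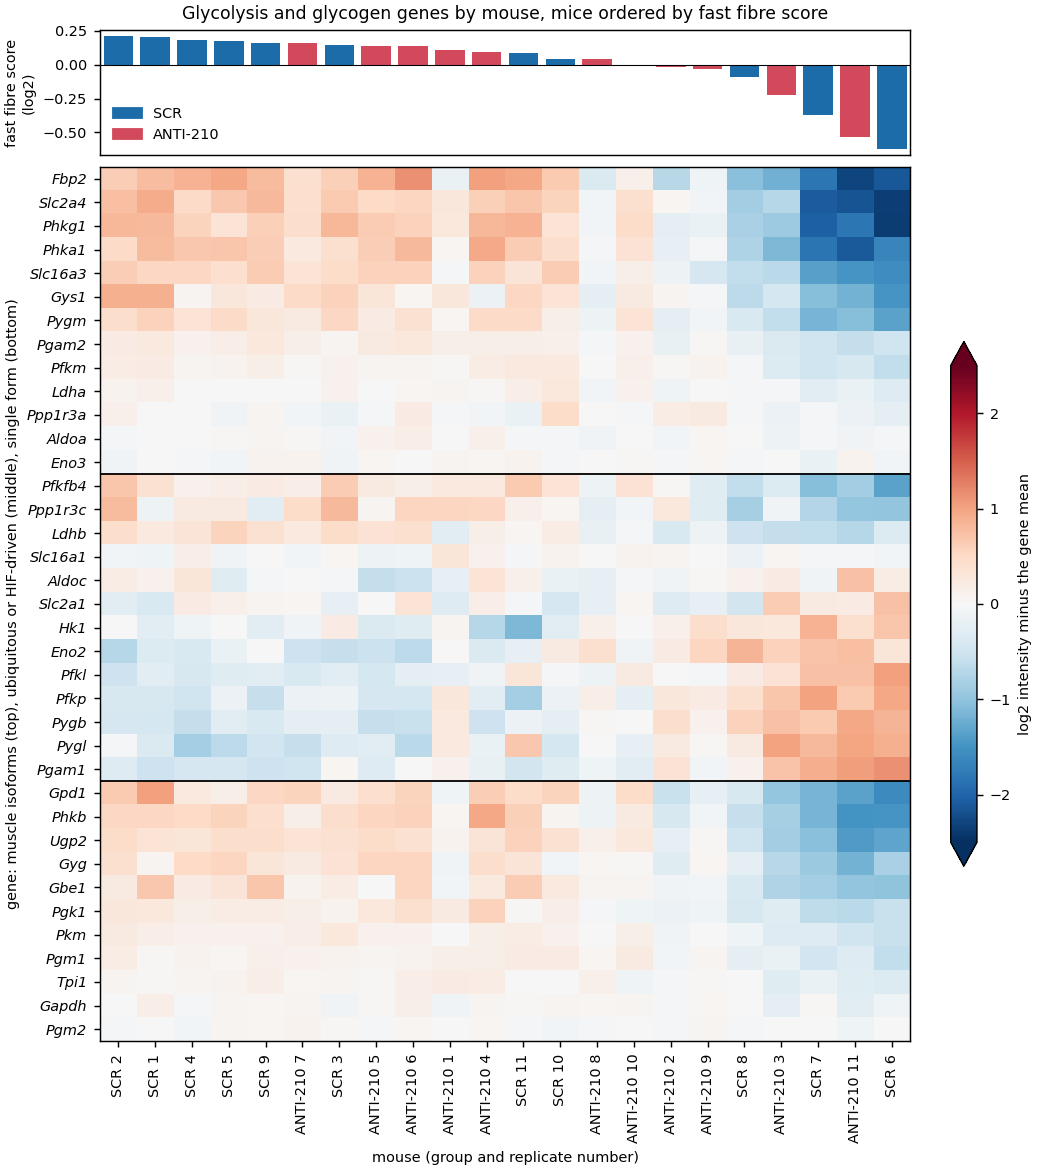
Each row is a gene and each column a mouse, ordered from the highest to the lowest fast fibre score, which the bars at the top give in log2 units. Colours show the log2 intensity minus the gene's mean, from blue (lower) to red (higher); the lowest values of all 23 falling genes lie in SCR replicate 6 or ANTI-210 replicate 11, at the right.

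The lowest value of each of the 23 falling genes was found in SCR replicate 6 (14 genes) or ANTI-210 replicate 11 (9 genes). For 19 of them the 3 mice with the lowest scores were also the 3 mice with the lowest values. Of the 8 rising genes 6 had their highest value in one of these 3 mice, and for 2 the 3 highest values were all theirs.

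Markers of some other cells, and not of all, moved along with these genes. Of 18 macrophage markers measured 17 rose with loss of the score and 1, Cd163, fell, and their mean level relative to the average mouse ran from -1.40 to 1.31 in SCR mice and from -0.74 to 1.13 in ANTI-210 mice. Of 13 regenerating fibre markers 9 rose, with levels from -1.07 to 1.06 and from -0.86 to 0.99. Of 9 fibroblast markers 5 rose and 2 fell, with levels from -0.57 to 0.35 in SCR mice and from -0.41 to 0.51 in ANTI-210 mice. Of 9 neutrophil markers 0 passed in either direction, 7 of them being near the lower end of the scale. Of 10 endothelial markers 1 fell and 0 rose, and of 8 adipocyte markers 1 fell and 0 rose. Of 6 Schwann cell and nerve markers 1 fell and 1 rose, and 0 of 4 red blood cell markers passed in either direction. Whether macrophages, regenerating fibres or fibroblasts supply the RNA of the rising isoforms was not tested.

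**Figure D2:**
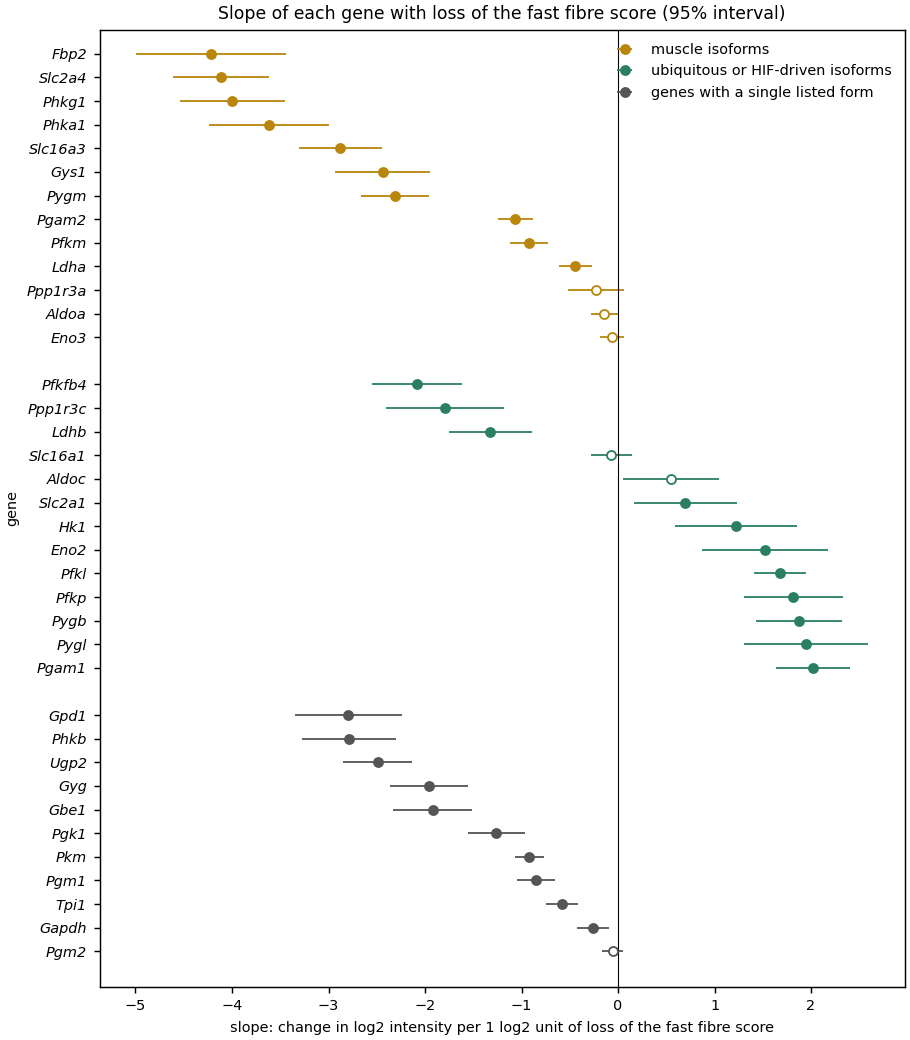
Points give the slope of each gene, as change in log2 intensity per 1 log2 unit of loss of the fast fibre score, and lines its 95% interval; filled points passed an adjusted p under 0.05 and open points did not. Muscle isoforms lie to the left of 0, from -4.21 (Fbp2) to -0.06 (Eno3), and 8 of the 13 ubiquitous or HIF-driven isoforms lie to the right with filled points.

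Glucose enters the fibre through transporters. Slc2a4, which encodes GLUT4, the insulin-responsive carrier of muscle and fat, ran from 8.21 to 11.50 in SCR mice (median 11.22) and from 8.40 to 11.17 in ANTI-210 mice (median 10.85). Its lowest values were those of SCR replicates 6 and 7 and ANTI-210 replicate 11, and the groups overlapped. The slope was -4.11 (95% interval -4.61 to -3.61, adjusted p = 9.30e-11), a 10.9-fold decrease over the observed range.

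Slc2a1, which encodes GLUT1, the ubiquitous carrier and a HIF target, ran from 8.11 to 9.30 in SCR mice (median 8.55) and from 8.25 to 9.21 in ANTI-210 mice (median 8.62). Its highest value was that of SCR replicate 6, where Slc2a4 was lowest. The slope of 0.70 (0.16 to 1.23, adjusted p = 0.0382) depended on single mice: it was 0.39 with an adjusted p of 0.433 without SCR replicate 6. Leaving out any of 5 further mice, SCR replicates 1, 2 and 7 and ANTI-210 replicates 1 and 3, also took the adjusted p above 0.05, to between 0.0503 and 0.0698. Median centring of the arrays did so too (adjusted p = 0.0558). With a score of macrophage or of regenerating fibre markers in place of the fast fibre score, Slc2a1 did not pass (limma adjusted p = 0.349 and 0.613). The within-mouse difference Slc2a4 minus Slc2a1 fell by 4.81 per unit of score loss (95% interval -5.51 to -4.11, permutation p = 1e-05, the smallest that 100000 resamples can give).

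Of the early, regulated steps, isoforms could be compared at phosphofructokinase and not at hexokinase, since Hk2, the muscle form, had no value here. Hk1, the ubiquitous hexokinase that traps glucose as glucose 6-phosphate, ranged from 5.31 to 7.29 and rose with a slope of 1.22 (0.58 to 1.86, adjusted p = 0.00268). Pfkm, the muscle subunit of phosphofructokinase, which commits sugar to glycolysis, ran from 14.23 to 15.09 in SCR mice (median 14.94) and from 14.43 to 15.02 in ANTI-210 mice (median 14.87). It fell with a slope of -0.93 (-1.12 to -0.73), a 1.71-fold decrease over the range. A second, less intense Pfkm probe had a slope of -1.70 (standard error 0.12).

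The other subunits of the same enzyme went the opposite way. Pfkl, the liver subunit, ran from 8.44 to 9.99 in SCR mice (median 8.70) and from 8.52 to 9.69 in ANTI-210 mice (median 8.88). Pfkp, the platelet subunit, ran from 6.79 to 8.64 (median 7.49) and from 7.20 to 8.33 (median 7.80). Pfkl rose with a slope of 1.67 (1.41 to 1.94, adjusted p = 2.32e-09) and Pfkp with a slope of 1.82 (1.30 to 2.33, adjusted p = 3.59e-06), 2.64-fold and 2.87-fold over the range. The difference Pfkm minus Pfkl fell by 2.60 (-2.86 to -2.34) and Pfkm minus Pfkp fell by 2.74 (-3.41 to -2.08), each with a permutation p of 1e-05.

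Pfkfb4, a HIF target whose enzyme sets the level of the phosphofructokinase activator fructose 2,6-bisphosphate, did not follow the ubiquitous isoforms. Its value ranged from 9.13 to 11.16 over all mice and fell with a slope of -2.08 (-2.55 to -1.61, adjusted p = 1.91e-07), 3.35-fold over the range.

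Fbp2, the muscle fructose bisphosphatase, which works against phosphofructokinase and lets muscle make glycogen from lactate, had the lowest slope of the 37 genes. It ran from 8.51 to 11.59 in SCR mice (median 11.27) and from 8.33 to 11.76 in ANTI-210 mice (median 10.51). The slope was -4.21 (-4.99 to -3.44, adjusted p = 1.43e-08), an 11.6-fold decrease. Gpd1, the cytosolic glycerol 3-phosphate dehydrogenase that takes a side branch from the pathway, fell with a slope of -2.79 (-3.35 to -2.24), 5.06-fold over the range.

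In the middle of the pathway many probes lay close to the upper end of the scale. For the 9 genes with a mean over 14 (Pfkm, Aldoa, Pgam2, Eno3, Ldha, Tpi1, Gapdh, Pkm and Pgm1), the values spanned 0.25 to 0.87 log2 units over all mice and the slopes lay between -1.06 and -0.06. The 23 genes with a mean of 6 to 14 spanned 1.19 to 3.43 units, with slopes between -4.21 and 2.02. Of the 9 genes, Pfkm, Tpi1 and Pgm1 had less intense probes, all with steeper slopes than the probe used. These were -1.70 against -0.93 for Pfkm, -0.92 and -0.99 against -0.58 for Tpi1, and -1.38 against -0.85 for Pgm1. Whether the intense probes were limited by the scale was not tested. The size of their slopes and folds may therefore not be comparable with that of the other genes.

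Aldoa, the muscle aldolase, which splits fructose 1,6-bisphosphate, ran from 14.84 to 14.99 in SCR mice (median 14.89) and from 14.78 to 15.07 in ANTI-210 mice (median 14.93). Its slope of -0.14 (adjusted p = 0.114) did not pass, and under cyclic loess it was 0.21 and passed (adjusted p = 0.0333). Aldoc, the brain aldolase, was near the lower end of the scale, from 5.00 to 5.61 in SCR mice (median 5.40) and from 4.71 to 6.03 in ANTI-210 mice (median 5.26), with a slope of 0.55 (adjusted p = 0.0851). The difference Aldoa minus Aldoc fell by 0.69 (-1.26 to -0.12, permutation p = 0.0212), but without ANTI-210 replicate 11 it fell by 0.37 with a permutation p of 0.203.

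The genes with a single form at the next steps fell. Tpi1, triosephosphate isomerase, had a slope of -0.58 on the probe used and of -0.92 and -0.99 on its 2 less intense probes, and Pgk1, phosphoglycerate kinase, the first step that yields ATP, a slope of -1.26 (2.08-fold over the range). Gapdh, which oxidises glyceraldehyde 3-phosphate and often serves as a reference gene, spanned 0.42 log2 units; its slope of -0.26 (adjusted p = 0.0123) was -0.19 without ANTI-210 replicate 11 (adjusted p = 0.121) and 0.06 under cyclic loess (adjusted p = 0.662). Pkm, pyruvate kinase, which makes the pyruvate and the last ATP, fell with a slope of -0.92 (-1.07 to -0.77). It was read by 1 probe, which was not assigned to a splice form.

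The isoforms of phosphoglycerate mutase, which moves the phosphate group before the enolase step, went in opposite directions. Pgam2, the muscle form, ran from 13.68 to 14.44 in SCR mice (median 14.31) and from 13.58 to 14.45 in ANTI-210 mice (median 14.29). Pgam1, the form of brain and most other tissues, ran from 7.49 to 9.16 (median 7.68) and from 7.51 to 9.05 (median 7.94). In both groups the mice with the lowest scores were low for Pgam2 and high for Pgam1, as the plot of isoform pairs shows.

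The slope was -1.06 for Pgam2 (-1.25 to -0.88, adjusted p = 6.36e-09) and 2.02 for Pgam1 (1.64 to 2.40, adjusted p = 1.86e-08), the highest of the 37 genes. The difference Pgam2 minus Pgam1 fell by 3.08 (-3.60 to -2.57, permutation p = 1e-05).

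**Figure D3:**
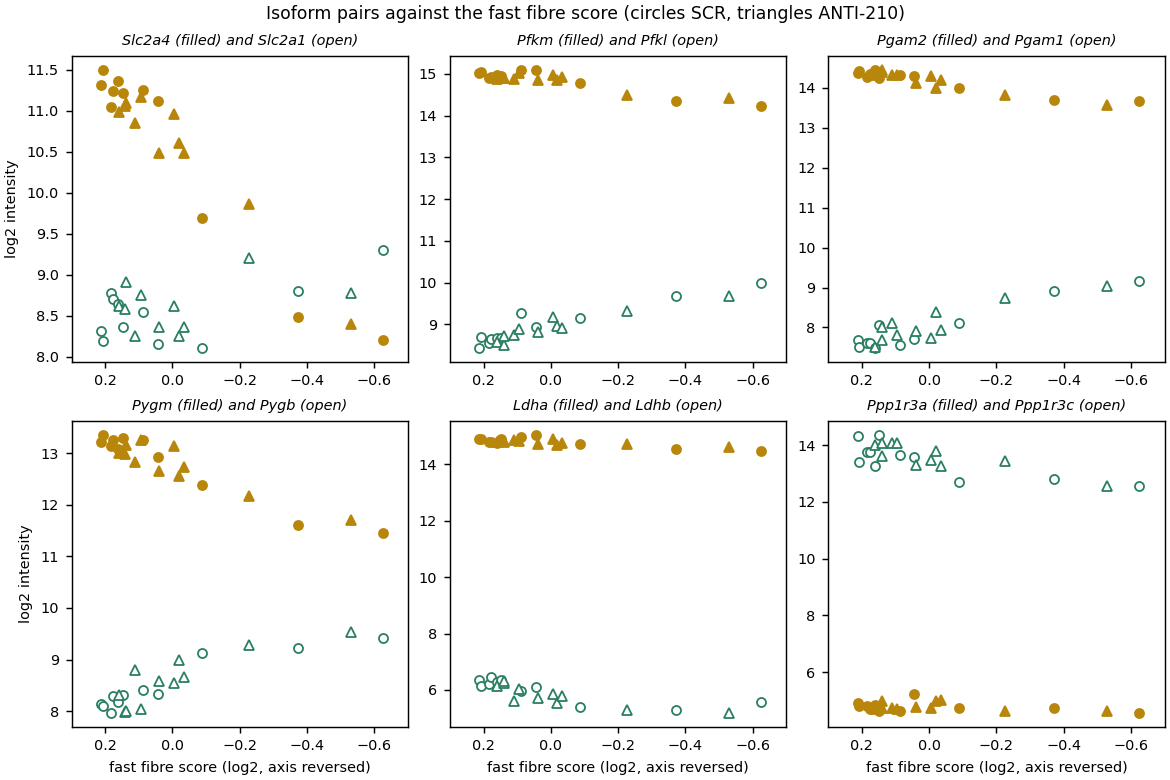
For 6 isoform pairs the log2 intensity of the muscle form (filled) and of the other form (open) is plotted against the fast fibre score, with the axis reversed so that loss of fibre RNA runs to the right; circles are SCR mice and triangles ANTI-210 mice. For Pfkm and Pfkl, Pgam2 and Pgam1, and Pygm and Pygb the 2 forms move in opposite directions. Slc2a4 falls, while the rise of Slc2a1 depended on single mice. Ldhb and Ppp1r3c fall more steeply than their muscle partners, whose probes lie near the upper (Ldha) or lower (Ppp1r3a) end of the scale.

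The sequences before the start sites of these genes are shown because the 2 forms moved in opposite directions. They are the 250 bases upstream of the RefSeq start, 5′ to 3′ in the direction of the gene, at chr11:5803797-5804046 (Pgam2, minus strand) and chr19:41911621-41911870 (Pgam1, plus strand) of GRCm38.p6. Capitals mark matches to the core of the HIF element (ACGTG or GCGTG), to the MEF2 consensus and to the E-box CAGCTG, which myogenic factors can bind, each searched on both strands; the HIF core can overlap with the E-box CACGTG, which was not searched.
Pgam2: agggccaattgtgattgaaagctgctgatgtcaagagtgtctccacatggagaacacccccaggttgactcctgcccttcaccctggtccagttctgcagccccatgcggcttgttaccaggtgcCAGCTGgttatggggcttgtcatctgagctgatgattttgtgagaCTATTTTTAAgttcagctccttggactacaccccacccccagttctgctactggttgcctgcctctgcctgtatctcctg
Pgam1: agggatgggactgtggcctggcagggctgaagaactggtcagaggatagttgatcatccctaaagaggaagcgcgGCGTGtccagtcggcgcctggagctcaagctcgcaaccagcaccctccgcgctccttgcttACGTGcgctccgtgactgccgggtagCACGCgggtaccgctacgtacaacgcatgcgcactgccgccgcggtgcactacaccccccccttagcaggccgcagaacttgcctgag

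The Pgam2 window held 1 MEF2 match, 1 E-box and 0 HIF cores, and the Pgam1 window held 3 HIF cores and 0 of the others. Among all 32851 RefSeq windows of this length, 38.6% held a HIF core, 2.92% a MEF2 match and 13.0% this E-box. The share of G and C was 53.2% for Pgam2 and 64.0% for Pgam1. A match describes the sequence and is not a measured binding site.

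Eno3, the muscle enolase, ran from 14.96 to 15.21 in SCR mice (median 15.09) and from 15.10 to 15.21 in ANTI-210 mice (median 15.18), the narrowest span of the genes with a mean of 6 or more. Its slope of -0.06 (adjusted p = 0.488) did not pass, and under cyclic loess it was 0.32 and passed (adjusted p = 0.0033). Eno2, the neuronal enolase and a HIF target, ran from 6.28 to 7.85 in SCR mice (median 6.83) and from 6.34 to 7.76 in ANTI-210 mice (median 6.98) and rose with a slope of 1.52 (0.87 to 2.17, adjusted p = 4.43e-04). The difference Eno3 minus Eno2 fell by 1.58 (-2.27 to -0.89, permutation p = 4e-05).

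Lactate dehydrogenase did not follow the pattern of most pairs. Ldha, the muscle form, which favours lactate production and is a HIF target, ran from 14.46 to 15.04 in SCR mice (median 14.79) and from 14.61 to 14.89 in ANTI-210 mice (median 14.79). Ldhb, the form of heart and oxidative fibres, ran from 5.29 to 6.46 (median 6.14) and from 5.19 to 6.31 (median 5.78), near the lower end of the scale. Both fell, Ldha with a slope of -0.44 (-0.61 to -0.27) and Ldhb with a slope of -1.33 (-1.76 to -0.90), so that the difference Ldha minus Ldhb went up by 0.88 per unit of score loss (0.40 to 1.37, permutation p = 4.4e-04). In SCR mice alone this difference went up by 0.70 and did not pass (permutation p = 0.05). The Ldha probe lay near the upper end of the scale. Of 8 slow fibre markers measured, 5 fell and 1 rose.

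Lactate leaves the fibre through monocarboxylate transporters. Slc16a3, which encodes MCT4, the exporter of fast fibres and a HIF target, ran from 6.68 to 8.87 in SCR mice (median 8.70) and from 6.76 to 8.81 in ANTI-210 mice (median 8.20). It fell with a slope of -2.88 (-3.31 to -2.45, adjusted p = 9.60e-10), 5.32-fold over the range. Slc16a1, which encodes MCT1, stayed between 4.50 and 4.82 in SCR mice (median 4.59) and between 4.52 and 4.95 in ANTI-210 mice (median 4.65), close to the lowest value on the arrays (4.35), so its slope of -0.07 (-0.28 to 0.14) gives no measure of that transporter. The difference Slc16a3 minus Slc16a1, which fell by 2.81 (-3.30 to -2.32, permutation p = 1e-05), is therefore almost that of Slc16a3.

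Glycogen breakdown starts with glycogen phosphorylase, and here too the muscle form fell and the others rose. Pygm, the muscle form, ran from 11.45 to 13.35 in SCR mice (median 13.13) and from 11.71 to 13.26 in ANTI-210 mice (median 12.83). Pygb, the brain form, ran from 7.97 to 9.41 (median 8.31) and from 7.98 to 9.53 (median 8.59). Pygl, the liver form, ran from 8.14 to 9.87 (median 8.67) and from 8.31 to 10 (median 8.97).

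Pygm fell with a slope of -2.31 (-2.66 to -1.96, adjusted p = 1.06e-09), 3.83-fold over the range. Pygb rose with a slope of 1.87 (1.42 to 2.32, adjusted p = 4.36e-07) and Pygl with a slope of 1.95 (1.31 to 2.59, adjusted p = 2.26e-05), 2.97-fold and 3.10-fold. The difference Pygm minus Pygb fell by 4.19 (-4.89 to -3.48) and Pygm minus Pygl fell by 4.26 (-5.05 to -3.47), each with a permutation p of 1e-05.

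The upstream windows of the muscle and the brain form are shown for the same reason and with the same capitals. They lie at chr19:6384158-6384407 (Pygm) and chr2:150786546-150786795 (Pygb), both on the plus strand of GRCm38.p6.
Pygm: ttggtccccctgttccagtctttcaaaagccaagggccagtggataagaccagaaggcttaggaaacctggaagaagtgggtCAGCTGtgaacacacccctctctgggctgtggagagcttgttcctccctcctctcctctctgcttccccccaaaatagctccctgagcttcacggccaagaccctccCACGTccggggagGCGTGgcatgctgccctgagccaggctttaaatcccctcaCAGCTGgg
Pygb: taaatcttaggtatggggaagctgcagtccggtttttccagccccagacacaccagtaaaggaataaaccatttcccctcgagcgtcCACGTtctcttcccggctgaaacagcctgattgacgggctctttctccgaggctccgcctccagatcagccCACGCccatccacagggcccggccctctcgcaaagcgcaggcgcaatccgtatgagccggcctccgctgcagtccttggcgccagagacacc

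The Pygm window held 2 E-boxes and 2 HIF cores, and the Pygb window held 2 HIF cores and 0 E-boxes, so the HIF core did not separate these 2 genes. Windows were found for 35 of the 37 genes, with several windows for some. A HIF core stood in a window of 8 of 12 muscle isoforms, 12 of 13 ubiquitous or HIF-driven isoforms and 8 of 10 genes with a single form, beside 41.5% of all 27025 genes with a window. The E-box was found for 6, 1 and 2 of them, beside 14.7%, and the MEF2 match for 2, 0 and 0, beside 3.42%. These are counts of letters and were not tested.

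Phosphorylase kinase, which switches glycogen phosphorylase on when calcium rises, fell in the 3 subunits listed here. Phka1, the muscle α subunit, ran from 8.95 to 11.57 in SCR mice (median 11.27) and from 8.68 to 11.73 in ANTI-210 mice (median 10.83), with a slope of -3.61 (-4.24 to -2.99, adjusted p = 5.73e-09). Phkg1, the muscle catalytic γ subunit, ran from 9.21 to 12.46 (median 12.15) and from 9.78 to 12.42 (median 11.86), with a slope of -4.00 (-4.54 to -3.45, adjusted p = 3.33e-10). Over the observed range these were decreases of 8.16-fold and 10.2-fold, and Phkb, the shared β subunit, fell 5.04-fold (slope -2.78). Of the liver subunits, which were not among the 37 genes, Phka2 rose (slope 1.22, adjusted p = 8.88e-05) and Phkg2 passed in neither direction (slope 0.18, adjusted p = 0.478).

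The enzymes that build glycogen fell as well. Gys1, the muscle glycogen synthase and a HIF target, ranged from 6.13 to 8.51 and had a slope of -2.44 (-2.93 to -1.95, adjusted p = 4.25e-08), 4.12-fold over the range. Ugp2, which makes the UDP-glucose that the synthase uses, fell with a slope of -2.49, Gyg, glycogenin, the primer of the chain, with -1.96, and Gbe1, the branching enzyme, with -1.92. Pgm1, the phosphoglucomutase that links glycogen to glycolysis, fell with a slope of -0.85 (-1.38 on a less intense probe), and Pgm2 stayed between 4.37 and 4.55, at the lower end of the scale. Phosphorylase and synthase of muscle thus fell in the same mice.

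Glycogen-targeting subunits of protein phosphatase 1 bring the enzyme that activates the synthase to the glycogen particle. Ppp1r3a, the subunit of skeletal muscle, was read by a probe near the lower end of the scale, from 4.57 to 5.24 in SCR mice (median 4.75) and from 4.64 to 5.01 in ANTI-210 mice (median 4.75), with a slope of -0.23 (adjusted p = 0.245). Ppp1r3c, a widely expressed subunit and HIF target, ran from 12.56 to 14.36 (median 13.60) and from 12.57 to 14.09 (median 13.61) and fell with a slope of -1.79 (-2.41 to -1.18, adjusted p = 3.49e-05). The difference Ppp1r3a minus Ppp1r3c went up by 1.56 (0.82 to 2.31, permutation p = 6e-05), which is close to the change of Ppp1r3c alone.

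In all, 11 of the 15 isoform pairs listed had both genes measured. The muscle form fell relative to the other form in 9 of them and gained on it in 2 (Ldha over Ldhb and Ppp1r3a over Ppp1r3c). In those 2 pairs the muscle probe lay near an end of the scale, the upper for Ldha and the lower for Ppp1r3a. Some probes of the 9 pairs did so too, such as Eno3 near the upper end and Slc16a1 near the lower. No p was adjusted over the pairs, and pairs that share Pfkm or Pygm are not independent.

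Other genes of energy metabolism, from lists made by function, give the surroundings. Of 42 further genes of glycolysis, glycogen and pyruvate metabolism 22 fell and 7 rose, among the former Gpd2 (slope -1.86), Prkaa2, a catalytic subunit of AMP kinase (-3.28), Pdha1 of pyruvate dehydrogenase (-1.44) and Ldhd (-3.70). Of 27 genes of the citric acid cycle and fatty acid oxidation 24 fell and 1 rose, with a median slope of -1.43. Of 5 genes of the pentose phosphate pathway 1 fell and 2 rose, among the latter Tkt, transketolase (1.69).

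Of 19 HIF targets measured outside the 37 genes 7 fell, among them Vegfa (-2.91) and Egln1 (-2.97), 4 rose, among them Car12 (2.58) and P4ha2 (0.88), and 8 passed in neither direction. These counts stand beside the shares given above, 19.1% falling and 23.3% rising among all genes and 34.7% and 36.8% among genes with a mean of 6 or more. Within the pathway the 4 HIF targets counted among the muscle isoforms (Aldoa, Ldha, Slc16a3 and Gys1) had slopes from -2.88 to -0.14, and 3 of them fell. Of the HIF targets named above in the other class, Pfkfb4 (-2.08) and Ppp1r3c (-1.79) fell, and Slc2a1 (0.70) and Eno2 (1.52) rose. HIF targets among the genes with a single form were not listed apart.

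The treatment itself was the comparison the study was designed for, and asks whether blocking miR-210 changed these genes. Between ANTI-210 and SCR mice 1 of the 37 genes, Eno3, was higher at an unadjusted p under 0.05, the threshold the methods give for genes, and 0 were lower. Among all genes 1.45% were higher and 2.01% lower at that threshold. No glycolysis or glycogen gene passed after adjustment, beside 2 of all 18524 genes.

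Eno3 had a mean of 15.09 ± 0.07 (SD, n = 11) in SCR mice and 15.17 ± 0.03 (SD, n = 11) in ANTI-210 mice. The difference was 0.08 on the log2 scale (95% interval 0.02 to 0.13, limma unadjusted p = 0.00872), less than the span of 0.25 of this gene over all mice. It lost the threshold when the variance was modelled with trend and robust (p = 0.122) and when only probes of higher intensity were tested (p = 0.074 and 0.088). The differences of the 37 genes lay between -0.23 (Fbp2, 95% interval -1.17 to 0.71) and 0.14 (Pfkp, -0.30 to 0.58), and their median was -0.02, beside -0.0036 over all genes. For the genes that varied most between mice the intervals were wide, reaching 0.87 for Phkg1 and 0.83 for Slc2a4 on the side of ANTI-210. Of the 11 isoform pairs 0 passed between the groups (permutation p from 0.179 for Ldha minus Ldhb to 0.965 for Pfkm minus Pfkl).

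**Figure D4:**
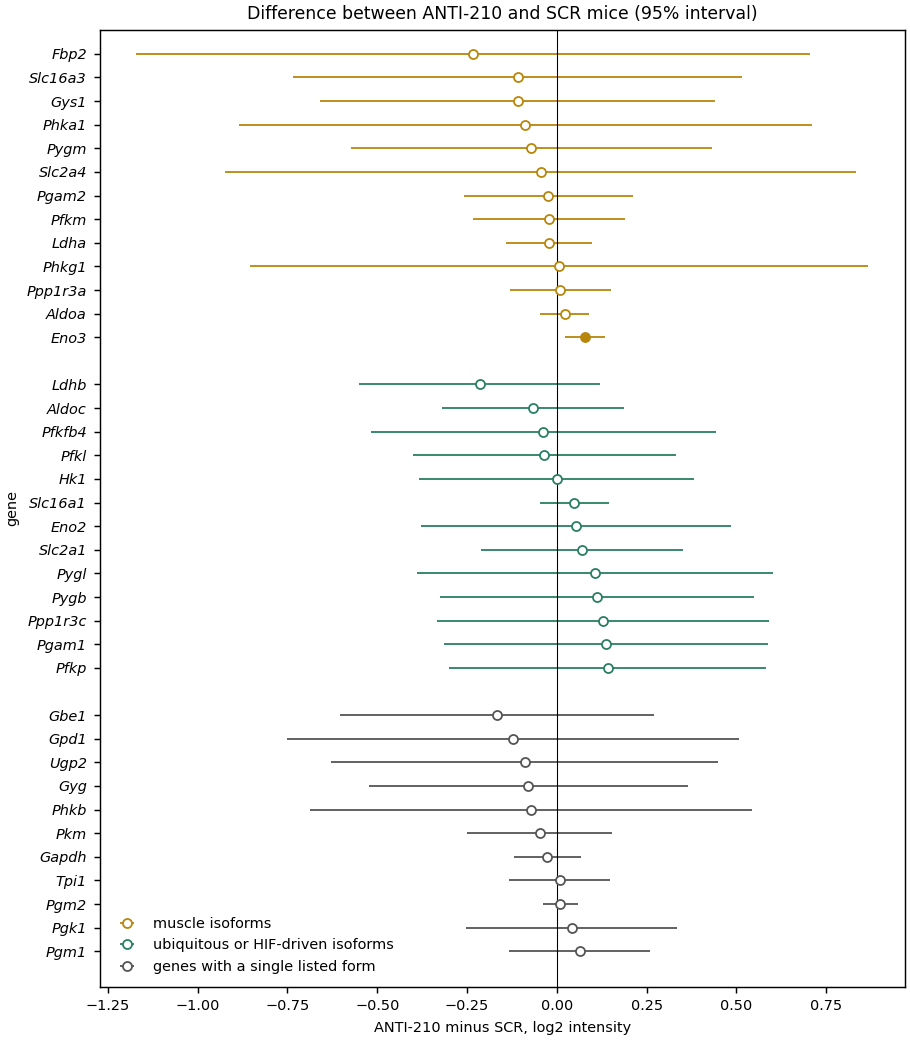
Points give the difference ANTI-210 minus SCR in mean log2 intensity of each gene (11 mice a group) and lines its 95% interval; the filled point, Eno3 at 0.08, has an unadjusted p under 0.05. The intervals of the other 36 genes include 0, and they are widest for Fbp2, Slc2a4, Phkg1 and Phka1.

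The second principal component of the arrays, with 7.31% of the variance, set mice numbered 1 to 3 of both groups (-24.9 to -14.9) apart from those numbered 4 to 11 (-6.06 to 21.95), though the labels name no batch. The treatments were therefore also compared within each set. Within numbers 1 to 3 (3 mice against 3), 15 of the 37 genes were lower and 6 higher in ANTI-210 mice at the unadjusted threshold, where 17.1% of all genes were lower and 17.6% higher. After adjustment 11 of the 37 passed, beside 17.3% of all genes. The lower genes included 7 muscle isoforms, such as Fbp2 (-1.35, adjusted p = 0.0279) and Pygm (-0.77, adjusted p = 0.0351), and the 6 higher ones were all ubiquitous or HIF-driven isoforms, such as Pygb (0.84, adjusted p = 0.0224) and Pfkp (0.73, adjusted p = 0.03). In these 6 mice the fast fibre scores of the groups did not overlap, with 0.15 to 0.21 in SCR and -0.23 to 0.11 in ANTI-210 mice. Treatment and loss of the score therefore cannot be told apart there.

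Within numbers 4 to 11 (8 mice against 8), where scores ran from -0.63 to 0.18 in SCR and from -0.53 to 0.16 in ANTI-210 mice, 1 gene was higher (Eno3, 0.08, p = 0.037) and 0 were lower, and 0 passed after adjustment. Among all genes 1.18% were higher and 1.35% lower. With the set as a covariate over all 22 mice, 1 gene passed the unadjusted threshold.

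Whether the slopes themselves differed between the treatments was tested with an interaction term. No gene passed after adjustment. At an unadjusted p under 0.05 there were 2, Aldoc (slope 1.35 higher in ANTI-210 mice, p = 0.00397) and Gapdh (slope -0.41 relative to SCR mice, p = 0.00987), beside 3.96% of all genes. Fitted in SCR mice alone 22 genes fell and 7 rose, and in ANTI-210 mice alone 22 fell and 7 rose. The shares among all genes were not taken for these fits. Slopes were -4.04 and -4.52 for Fbp2 and 2.02 and 2.02 for Pgam1. The genes called were not all the same. Gapdh lost its call in SCR mice (limma adjusted p = 0.433), Ldha (0.0657) and Hk1 (0.0929) in ANTI-210 mice, and Slc2a1 in both (0.0806 and 0.518). Aldoc gained a call in ANTI-210 mice (0.0181).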

How the data were processed

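Arrays of 22 mice (Illumina MouseWG-6 v2, 11 per group, 200 ng of total RNA, RNA integrity number above 7) were used, with groups and replicate numbers from the sample labels. The deposited values were read as log2, since they run from 4.35 to 15.4. The authors summarised beads in GenomeStudio, applied quantile normalization and filtered for expression and probe quality with beadarray, its version and thresholds not given in the sources used here. Quantile normalization fixes the distribution of each array, so a change in total RNA is not seen. The table holds 38563 probes, of which 32093 carry 1 symbol in the platform's annotation, 16 several and 6454 none, and 0 further value columns. A probe with a mean under 6 (62.6% of probes) was called near the lower end of the scale. Arrays correlated with each other at 0.947 to 0.997. Their number of arrays limits the precision.

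All probes were fitted with limma 3.58.1 in R 4.3.3 (lmFit and eBayes, two-sided), with Benjamini-Hochberg adjustment over all probes, for the treatment, for the slope on the fast fibre score with treatment as a covariate, and for their interaction. Isoform pairs were tested by permutation over mice (100000 resamples, two-sided), with 95% intervals from the linear model. The fits were tested on simulated data. Genes named with their values for both groups are those past the unadjusted threshold for the treatment, both genes of each pair described, and the 5 highest and 5 lowest slopes; of other lists at most 4 genes are named, and Cd163, Phka2 and Phkg2 were named after their values were seen. Gpd2, Prkaa2, Pdha1 and Ldhd had the smallest p of their list, and Car12, P4ha2, Vegfa and Egln1 of theirs. The genes, their classes and the lists were chosen with earlier results of these data known. Alternatives were other normalizations, variance models, array weights, probe rules, covariates and scores, and leaving out single mice. Numbers shared by mice of the 2 groups did not pair them: the correlation of deviations from the group means lay between -0.66 and 0.64, above 0.1 for 4 of 11 numbers. Promoter and microRNA sequences are those of RefSeq on GRCm38.p6.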

Additional observations from a re-analysis of the deposited data

How the results depend on the processing

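With the replicate block, 23 genes fell and 8 rose with loss of the score and 1 differed between the treatments, as without it, while Slc2a1 lost its call (adjusted p = 0.129); the numbers are not a pairing given by the design, and 1 of 11 SCR mice correlated best with its own number. Over the single mice left out, 22 to 23 genes fell and 7 to 9 rose, 10 muscle isoforms fell, 7 to 9 ubiquitous or HIF-driven isoforms rose, 8 to 9 pairs fell, 1 gene differed between the treatments and 0 pairs did. The number of genes that differed between the treatments, 1 in the deposited values, was 0 with trend and robust, 0 with probes at or above the median mean, 0 with probes of a mean of 6 or more, 2 with array weights and 21 within numbers 1 to 3. Within numbers 1 to 3 (6 mice) 0 genes fell and 0 rose after adjustment, among muscle isoforms 0 and among ubiquitous ones 0. The number of genes whose slope differed between the treatments at an unadjusted p under 0.05, 2 in the deposited values, was 6 with array weights and 1 with either filter on dim probes; after adjustment it was 0 in each of these. Slopes near 0 changed sign: Aldoa to 0.21, Eno3 to 0.32 and Gapdh to 0.0637 under cyclic loess; Slc16a1 to 0.0523 with the replicate block, 0.00614 on the macrophage score and 0.00831 on the regenerating fibre score; Pgm2 to 0.0643 within numbers 1 to 3 and 0.00594 in SCR mice; and Eno3 to 0.0145 in ANTI-210 mice. The cause was not tested. With only the fast fibre markers of a mean of 6 to 14, an alternative chosen after seeing the data, 23 genes fell and 8 rose, with slopes of -2.36 for Fbp2 and 1.13 for Pgam1. Without the 2 mice farthest from the median score 22 fell and 7 rose, and Slc2a1 (adjusted p = 0.544), Gapdh (0.303) and the Aldoa minus Aldoc difference (permutation p = 0.29) lost their calls. Of 22 further probes of these genes 11 had a mean of 6 or more, and all 11 had a slope of the same sign as the probe used. Genes near either end of the scale limit what can be read from their slopes.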
